A study of Rattus norvegicus with 8 samples.

Results

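The cluster of miR-183, miR-96 and miR-182 was followed in the kidneys of rats treated with aristolochic acid (AA), the nephrotoxic and carcinogenic compound of Aristolochia plants, and in the kidneys of control rats. Every mature miRNA named miR-183, miR-96 or miR-182 in the count table was taken as a member, together with the minor arms that the older miRNA nomenclature marks with an asterisk. Of the 620 miRNAs in the table, 5 were members, namely rno-miR-183, rno-miR-96, rno-miR-182, rno-miR-183* and rno-miR-96*, written here without the prefix for rat. The rule used names and no measured value. All 8 animals were male Big Blue transgenic rats on the Fisher 344 background, 6 weeks old at the start, and 1 small RNA library was made from a cut piece of the kidney tissue of each. The part of the kidney that was cut is not given in the sources used here. The sodium salt of AA was given to 4 rats by gavage 5 times per week, with a dose of 10.0 mg per kg in a volume of 4 ml per kg, and 0.9% sodium chloride was given to the 4 control rats on the same schedule. The protocol gives a treatment of 12 weeks for all rats, whereas the sample descriptions lengthen it from 12 weeks for rat 1 to 13, 14 and 15 weeks for rats 2, 3 and 4 in either group but list every rat as 18 weeks old, and this difference could not be resolved.

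A miRNA gene is transcribed into a long primary transcript, from which a hairpin is cut and then trimmed to a short duplex. One strand of the duplex, the mature miRNA, guides the silencing complex to messenger RNAs through its seed near the 5′ end, and the other strand is mostly degraded. The hairpins of miR-183, miR-96 and miR-182 are known to be cut from a shared primary transcript. The cluster is best known from sensory cells, including photoreceptors and the hair cells of the inner ear, where changes in the seed of miR-96 cause hearing loss, and it is also expressed in epithelial tissues and raised in many carcinomas. miR-96 and miR-182 are known to act on FOXO1 and FOXO3, transcription factors of cell cycle arrest and stress resistance, and miR-183 on EGR1, an early response transcription factor, and on ezrin, a linker of membrane and cytoskeleton.

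The RefSeq sequences of the 5 members are shown because the seeds of miR-183, miR-96 and miR-182 differ from each other at only 1 or 2 positions, while those of the minor arms are unlike them. All of them lie on the minus strand of chromosome 4 in the GRCr8 assembly, in the order in which they are transcribed, and the capitals mark the seed, bases 2 to 8 counted from the 5′ end.
miR-183 at chr4:59756106-59756127: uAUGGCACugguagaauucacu
miR-183* at chr4:59756067-59756087: uGAAUUACcgaagggccauaa
miR-96 at chr4:59755901-59755923: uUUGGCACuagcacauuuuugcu
miR-96* at chr4:59755860-59755881: cAAUCAUGugcagugccaauau
miR-182 at chr4:59752249-59752273: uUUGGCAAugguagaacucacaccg

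The 3 hairpins spanned 3908 bases, with 97 bases between the hairpins of miR-183 and miR-96 and 3533 bases between those of miR-96 and miR-182. The nearest annotated genes on either side were Nrf1 and Ube2h, and Mir3553, a miRNA gene annotated on the opposite strand, overlapped Mir183. The mature miR-3553 holds the reverse complement of miR-183 and was not analysed here. Whether the counting used the strand is not given in the sources used here. The counts of miR-183 may therefore include reads of this antisense partner.

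The seeds of miR-183 and miR-96 differed by A2U, those of miR-96 and miR-182 by C8A, and those of miR-183 and miR-182 by both A2U and C8A. In these tokens the base of the first named miRNA comes first and positions count from the 5′ end. miR-96 and miR-182 thus had the same first 7 bases. From base 9 on, after the seed, miR-183 and miR-182 had the same base at 12 of 14 positions, including a run of 8 bases at positions 9 to 16, against 6 of 14 for miR-183 and miR-96 and 5 of 15 for miR-96 and miR-182. Over the whole length from base 1, these pairs had the same base at 18 of 22, 13 of 22 and 12 of 23 positions. None of the other miRNAs among the 724 mature rat sequences in the RefSeq table had the seed of a member, so that the list of miRNAs sharing a full seed was empty. Bases 2 to 7 were shared by miR-96 and miR-182 and by no other sequence of that table. Among 312 miRNAs of the count table with a matched sequence, the closest sequence to miR-183 and to miR-182 was the other one of that pair, at 7 edits, and the closest to miR-96 was miR-183, at 8 edits.

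The libraries held 13412373 to 15616670 counts on miRNAs. Normalized counts are counts divided by the size factor of the library, a median of ratios that lay between 0.818 and 1.28. AA-treated and control rats were compared by the quasi-likelihood test of edgeR on the whole table with Benjamini-Hochberg adjustment, and a miRNA was called where the adjusted p was under 0.05 and the group means differed by more than 1.5-fold. In tissue that was not sorted by cell type, fewer cells of a type and less RNA per cell cannot be told apart. The miRNAs listed as markers of kidney tubules were all measured, with 6 of 6 present and summed normalized counts between 3512820 and 4203380 in control and between 2675250 and 3855780 in AA-treated kidneys, and 1 of them, miR-204, was called lower. Among the markers of leukocytes, 4 of 5 listed were measured and 2, miR-142-3p and miR-223, were called higher, and their sums were 13715 to 17802 in control and 29485 to 56648 in AA-treated rats. Of the red cell markers 2 of 3 listed were measured and none was called, with sums of 6910 to 11910 and 2172 to 8116 in the same order. All listed markers of fibroblasts and smooth muscle (4), of muscle (3), of hepatocytes (1) and of neurons (2) were measured, and 1 of these 10, the neuronal miR-124, was called higher. miR-124 was scarce, with 0 to 3.67 normalized counts in control and 6.90 to 25.0 in AA-treated rats. The other neuronal marker, miR-9, made up nearly all of the neuron sum and was not called (adjusted p = 0.496, edgeR). The summed levels in the control and AA-treated rats were 2557470 to 3547590 and 1967880 to 2674500 for fibroblasts and smooth muscle, 492.4 to 829.2 and 439.8 to 621.7 for muscle, 60.4 to 735 and 10.1 to 7519 for hepatocytes, and 3925 to 5652 and 4153 to 8149 for neurons. Most of the fibroblast and smooth muscle sum was miR-143, with a log2 fold change of -0.41 in edgeR. The other markers of that list went the other way, with 0.60 for miR-199a-3p, 0.43 for miR-214 and 0.22 for miR-145. No measured marker was at 0 in all 8 rats.

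None of the 5 members was called different between AA-treated and control rats by edgeR, whereas 9.03% of all 620 miRNAs were called. No member had an unadjusted p under 0.05, against 148 of the 620, and none was called or had an unadjusted p under 0.05 with DESeq2 or limma-voom. The 2 groups overlapped in all 5 members, while 16.3% of all miRNAs had groups that did not overlap. The median log2 fold change was 0.15 over the 5 members and 0.12 over the 4 with a mean of at least 10 normalized counts, beside 0.05 for all miRNAs. These results do not show that the levels were alike in both groups, since the upper ends of the 95% intervals of those 4 members lay between 1.31-fold and 1.79-fold.

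miR-182 was the most abundant member and ranked 24th of the 620 miRNAs by mean normalized count in each group. Its normalized counts were 71211, 49488, 44794 and 70785 in control rats 1 to 4 and 53226, 39528, 49053 and 108287 in AA-treated rats 1 to 4. AA-treated rat 4 stood above all controls, AA-treated rat 2 stood below them, and the other AA-treated rats were within the control range. The means were 59069 ± 13908 and 62524 ± 31043 (SD, n = 4 each) in control and AA-treated rats, with a log2 fold change of 0.08 (SE 0.29) and an adjusted p of 0.872 in edgeR. The 95% interval of the fold change was 0.688 to 1.63. When AA-treated rat 4 was left out, miR-182 had a log2 fold change of -0.31 (adjusted p = 0.443, edgeR). It was -0.028 without control rat 3 (adjusted p = 0.988, edgeR), so the sign of the difference depended on which rats were included.

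miR-183, the first miRNA of the transcript, ranked 45th in the control and 47th in the AA-treated rats. Its normalized counts were 21104, 14067, 15455 and 12201 in control rats 1 to 4 and 16233, 12884, 14314 and 17633 in AA-treated rats 1 to 4. All 4 AA-treated rats were within the control range. The means of 15707 ± 3837 in control and 15266 ± 2091 in AA-treated rats (SD, n = 4 each) gave a log2 fold change of -0.04 (SE 0.20), an adjusted p of 0.911 in edgeR and a 95% interval of the fold change of 0.719 to 1.31. Its spread relative to the mean was 24.4% in the control and 13.7% in the AA-treated rats.

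miR-96, whose first bases are those of miR-182, was far less abundant and ranked 127th in the control and 124th in the AA-treated rats. Control rats 1 to 4 had 1104, 910, 877 and 1095 normalized counts, and AA-treated rats 1 to 4 had 965, 975, 1049 and 1910. Only AA-treated rat 4 lay outside the control range. The mean was 997 ± 120 in control and 1225 ± 458 in AA-treated kidneys (SD, n = 4 each), which gave a log2 fold change of 0.30 (SE 0.25, adjusted p = 0.496, edgeR) with a 95% interval of the fold change of 0.846 to 1.79. Leaving out AA-treated rat 4 brought the log2 fold change to 0.0061, with an adjusted p of 0.997. The spread relative to the mean was 12.0% in the control and 37.4% in the AA-treated rats. Among the 370 miRNAs with a mean of at least 10 normalized counts, 70 had a smaller relative spread in the control and 256 in the AA-treated rats.

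**Figure D1:**
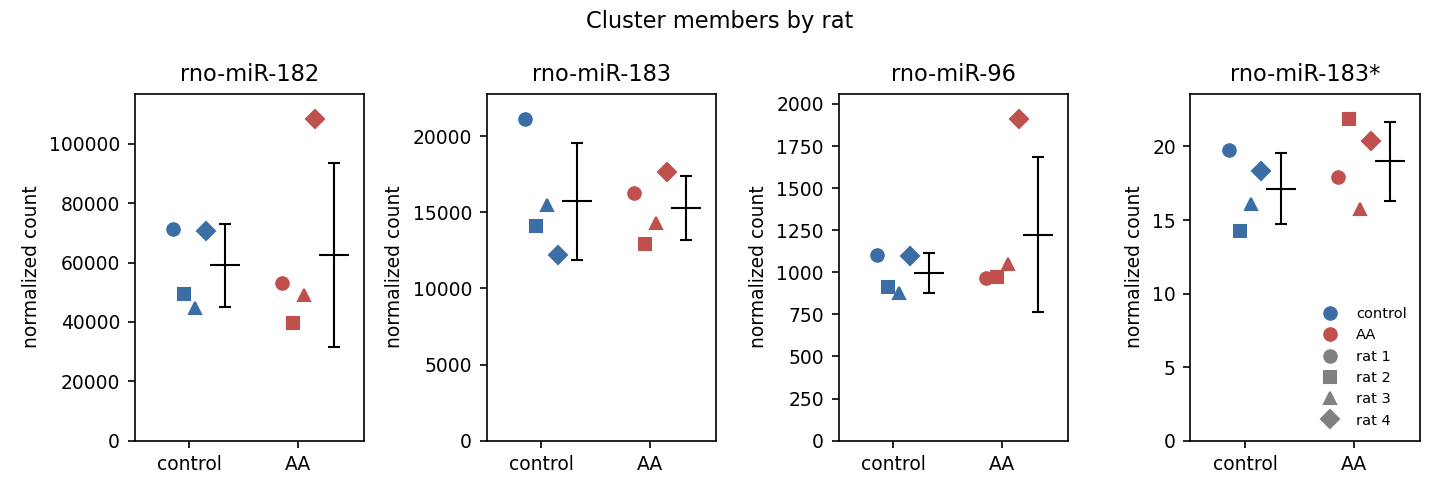
Normalized counts (vertical axes, linear and starting at 0) of the 4 members with a mean of at least 10, in control (blue) and AA-treated (red) rats. Each symbol is 1 rat, its shape gives the rat number, and the black bars are the mean ± SD of 4 rats; the groups overlap in all 4 panels, and AA-treated rat 4 is the highest of the 8 rats for miR-182 (108287) and miR-96 (1910) but not for miR-183 (17633).

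The minor arms were found at far lower levels, as is usual for strands that are degraded. miR-183* had 19, 13, 17 and 15 counts in control rats 1 to 4 and 16, 28, 16 and 25 in AA-treated rats 1 to 4 before normalization. After normalization the AA-treated rats had 18.0, 21.9, 15.8 and 20.4, of which 2 lay above all controls, and the control rats had 19.7, 14.3, 16.1 and 18.3. The means were 17.1 ± 2.41 and 19.0 ± 2.67 (SD, n = 4 each) in control and AA-treated rats, and the log2 fold change was 0.15 (SE 0.32, adjusted p = 0.790, edgeR), with a 95% interval of the fold change of 0.689 to 1.79. miR-96* had 0, 1, 0 and 0 counts in control rats 1 to 4 and 2, 0, 4 and 0 in AA-treated rats 1 to 4. No fold change is given for it, since these counts were at or near the floor of 3 counts, and its adjusted p was 0.409 in edgeR. No other arm of miR-182 was analysed here.

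The order of the members was the same in all 8 rats, with miR-182 above miR-183, miR-96, miR-183* and miR-96*, and the lowest rat of one lay above the highest rat of the next. The neighbours of each member in the order of mean normalized counts of the control rats did not differ from it beyond the spread over rats. miR-182 stood between let-7i with 64197 ± 11571 and let-7c with 54693 ± 13208, and miR-183 between miR-23a with 15790 ± 5673 and miR-27a with 15184 ± 5352. miR-96 stood between let-7d* with 1025 ± 488 and miR-497 with 982 ± 106, and miR-183* between miR-125b-3p with 17.4 ± 4.02 and miR-425* with 16.8 ± 5.96 (SD, n = 4 control rats for each). The ranges over the control rats overlapped for each of these pairs.

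Together the members made up 0.589%, 0.400%, 0.415% and 0.501% of the counts of control rats 1 to 4 and 0.468%, 0.450%, 0.473% and 1.01% of those of AA-treated rats 1 to 4. The cluster therefore took a larger share of the library of AA-treated rat 4 than of any other, and the other AA-treated rats were within the control range. Within the cluster, miR-182 made up 77.6% ± 4.64 of the counts in control and 77.6% ± 4.82 in AA-treated rats, miR-183 21.0% ± 4.60 and 20.8% ± 4.73, and miR-96 1.33% ± 0.116 and 1.58% ± 0.195 (SD, n = 4 each). The mean shares of miR-182 and miR-183 were thus close in the control and the AA-treated rats, although they differed between rats of the same group. For miR-96 the shares were 1.18%, 1.41%, 1.43% and 1.30% in control rats 1 to 4. They were 1.37%, 1.83%, 1.63% and 1.49% in AA-treated rats 1 to 4, of which only rat 1 was within the control range. The difference in these shares was not tested.

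Since the 3 hairpins share a primary transcript, the ratio of one member to another within a library was compared between the groups, a measure that needs no normalization between libraries. The 4 more abundant members give 6 ratios, and each was tested with a two-sided exact permutation test over the 70 labelings of the 8 rats, for which the smallest p is 0.0286. None of the 6 passed the test, with an adjusted p of 0.857 for each.

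The ratio of miR-182 to miR-183 was 3.37, 3.52, 2.90 and 5.80 in control rats 1 to 4 and 3.28, 3.07, 3.43 and 6.14 in AA-treated rats 1 to 4. The groups covered almost the same range, and the log2 difference between them was 0.02 (exact permutation p = 0.857). Within each group, however, rat 4 stood apart, with 5.80 and 6.14 against 2.90 to 3.52 and a median of 3.33 in the other 6 rats. This separation was noticed in the values and was not tested. The sample descriptions give the longest treatment for the rats numbered 4 of both groups. The protocol, however, gives 12 weeks for all rats, and every rat is listed as 18 weeks old. The part of treatment length in this separation was not tested.

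The ratio of miR-183 to miR-96 was 19.1, 15.4, 17.6 and 11.1 in control rats 1 to 4 and 16.8, 13.2, 13.6 and 9.23 in AA-treated rats 1 to 4. Again rat 4 of either group lay outside the other 6 rats, here below them, and the difference between the groups was -0.26 on the log2 scale (exact permutation p = 0.343). The ratio of miR-182 to miR-96, the pair with the same first 7 bases, was 64.5, 54.4, 51.1 and 64.7 in control and 55.2, 40.6, 46.8 and 56.7 in AA-treated rats, each in the order of rat 1 to 4. Here the rats numbered 4 were not set apart from the rats numbered 1, and the log2 difference between the groups was -0.24 (exact permutation p = 0.171). The share of miR-183 in the cluster was 14.5% in control rat 4 and 13.8% in AA-treated rat 4, against 21.8% to 25.3% in the other 6 rats, although its normalized count was the lowest of the group in control rat 4 and the highest of the group in AA-treated rat 4.

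The ratio of the arms of the miR-183 hairpin, miR-183* to miR-183, was 0.00112 ± 0.000256 in control and 0.00126 ± 0.000289 in AA-treated rats (SD, n = 4 each), with a log2 difference of 0.17 (exact permutation p = 0.457). It rests on 13 to 28 counts of miR-183* per rat, so that only a large shift would have been detectable at this depth. The ratios of miR-182 and of miR-96 to miR-183* differed by -0.15 and 0.09 on the log2 scale, with exact permutation p values of 0.657 and 0.743.

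**Figure D2:**
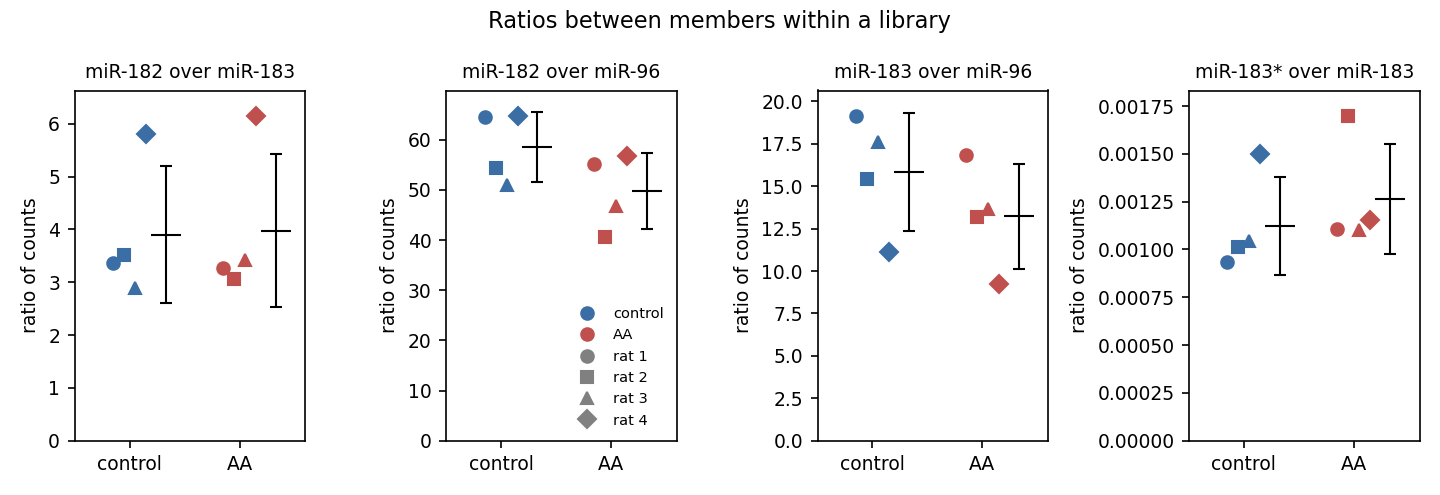
Ratios of the counts of one member to another within each library (vertical axes, linear and starting at 0) in control (blue) and AA-treated (red) rats. Each symbol is 1 rat, its shape gives the rat number, and the black bars are the mean ± SD of 4 rats; the rats numbered 4 (diamonds) had ratios of miR-182 to miR-183 of 5.80 and 6.14, above the 2.90 to 3.52 of the other 6 rats.

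In both rats numbered 4, miR-182 was above the median of the other 3 rats of its group. miR-183 was above that median only in AA-treated rat 4. In AA-treated rat 4, miR-182 was 2.21-fold and miR-96 1.96-fold the median of the other 3 AA-treated rats, while miR-183 was 1.23-fold and miR-183* 1.13-fold. The median of this fold over all 370 miRNAs with a mean of at least 10 was 1.00, and 27 of them reached at least the fold of miR-182 and 41 at least that of miR-96. In control rat 4, miR-182 was 1.43-fold, miR-96 1.20-fold and miR-183 0.789-fold the median of the other 3 control rats. The high ratio of miR-182 to miR-183 came with the highest miR-182 of its group in AA-treated rat 4. In control rat 4 it came with the lowest miR-183 of its group and with a miR-182 (70785) just below the highest (71211). Departures of both rats numbered 4 were frequent in the table, since 40 of the 370 miRNAs were higher in both of them than in all other 6 rats and 36 were lower, and no cluster member was among these. The leukocyte markers summed to 56648 in AA-treated rat 4, the highest of the AA-treated rats, and to 13715 in control rat 4, the lowest of the control rats. Most of this sum was miR-142-3p (53269 in AA-treated rat 4), and another listed leukocyte marker, miR-142-5p, had its lowest value of the 8 rats in AA-treated rat 4 (402). The red cell markers also had their lowest sum in that rat (2172, while AA-treated rats 1 to 3 had sums between 5449 and 8116). The part of these cell types in the levels of the members was not tested.

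The members were also compared across the 8 rats, as miRNAs cut from a shared transcript. Pearson's r of log2(normalized count + 1) between miR-182 and miR-96 was 0.887 (exact permutation p = 0.00404 over all pairings, adjusted p = 0.0243 over the 6 pairs). Spearman's rho was 0.738 (exact permutation p = 0.0458, adjusted p = 0.275). Without the 2 rats farthest from the median of miR-182, control rat 1 and AA-treated rat 4, r fell to 0.618 (exact permutation p = 0.182). The relation thus did not pass the test in the 6 rats left. This does not show that it was absent, since so few rats can reveal only a strong relation. Within the groups, as deviations from the group means, r was 0.953 (exact permutation adjusted p = 0.115). Leaving out AA-treated rat 4 alone gave 0.734 (exact permutation adjusted p = 0.387), and leaving out control rat 1 alone gave 0.908 (exact permutation adjusted p = 0.0833).

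The relation of miR-182 and miR-183 was weaker over all 8 rats, with an r of 0.475 (exact permutation p = 0.237, adjusted p = 0.475) and a rho of 0.524 (exact permutation p = 0.197, adjusted p = 0.393). Without the 2 rats farthest from the median of miR-182 it was -0.29 (exact permutation p = 0.608). In the 6 rats left after both rats numbered 4 were removed, r was 0.931 (exact permutation adjusted p = 0.0833). The rats numbered 4 had been set apart by the ratio of miR-182 to miR-183 itself. A higher r without them was therefore to be foreseen and is no support for a relation. miR-182 and miR-183 thus gave values of r from -0.29 to 0.931 depending on which rats were left out. The p of the set without the rats numbered 4 was adjusted over the 6 pairs and that of the set with -0.29 was not. These p values are therefore not on the same scale, and neither was under 0.05. For miR-183 and miR-96, r was 0.361 (exact permutation p = 0.363, adjusted p = 0.500) and rho 0.310 (exact permutation p = 0.462, adjusted p = 0.693), and r was 0.646 (exact permutation p = 0.211) without the rats farthest from the median of miR-183. The minor arm miR-183* had an r of 0.206 with miR-183, 0.342 with miR-182 and 0.482 with miR-96 (exact permutation p = 0.626, 0.416 and 0.238, adjusted p = 0.626, 0.500 and 0.475). The rho of these pairs was 0.143, 0.238 and 0.595 (exact permutation p = 0.752, 0.582 and 0.132, adjusted p = 0.752, 0.699 and 0.393). Without the 2 rats farthest from the median of the first of each pair, here miR-183*, miR-182 and miR-96, r was 0.531, -0.15 and 0.373 (exact permutation p = 0.283, 0.799 and 0.443).

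**Figure D3:**
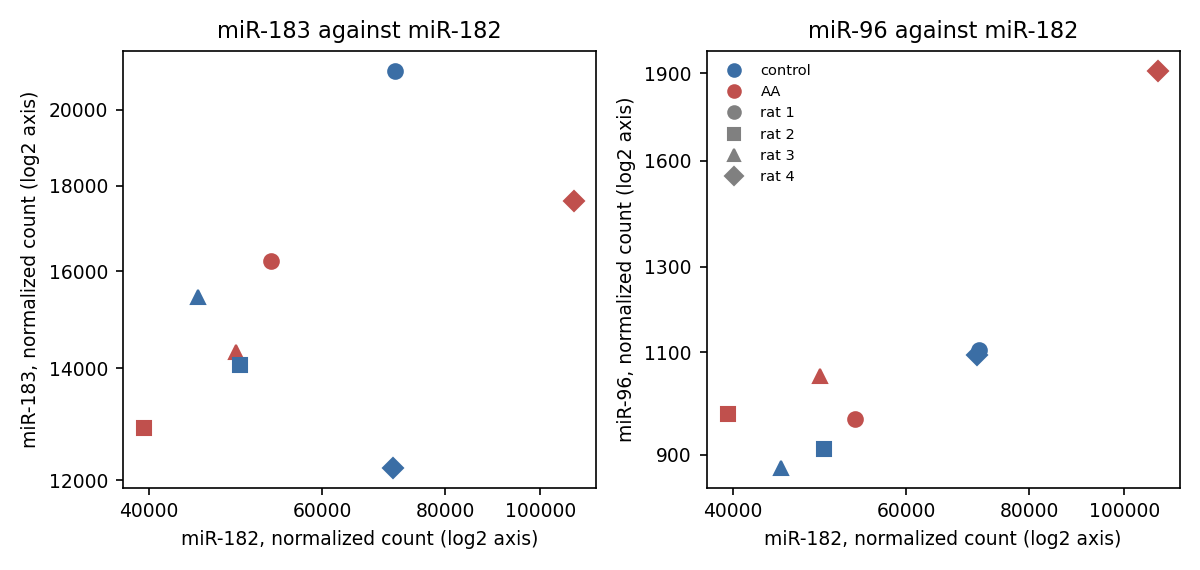
Normalized counts of miR-183 (left) and miR-96 (right) against those of miR-182 in the 8 rats, on log2 axes, with 1 symbol per rat, control in blue and AA-treated in red, and the shape giving the rat number. For miR-183 the rats numbered 4 (diamonds) lie to the right of the trend of the other 6 rats (r = 0.931 in those 6). The rats numbered 4 were set apart by the ratio of miR-182 to miR-183, so this r is no support for a relation. For miR-96, AA-treated rat 4 alone is at the upper right.

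Among all miRNAs with a mean of at least 10 normalized counts, the 369 others were ordered by their Pearson correlation with each member over the 8 rats, as a description of values that share libraries and size factors. The 5 most like miR-96 were miR-542-5p (0.935), miR-182 (0.887), miR-342-5p (0.882), miR-30b-3p (0.881) and miR-350 (0.859). Those most like miR-182 were miR-664-2* (0.919), miR-30b-3p (0.910), miR-96 (0.887), miR-342-5p (0.848) and miR-151* (0.830), so that miR-96 and miR-182 stood among the 5 of each other and had miR-30b-3p and miR-342-5p in both. For miR-183 they were let-7e (0.729), let-7i (0.712), miR-92a-1* (0.704), let-7c (0.700) and miR-877 (0.686), with no cluster member, and miR-182 came 24th and miR-96 48th. Without both rats numbered 4, an order added after the data were seen, miR-182 was the first for miR-183 (0.931), and miR-183 was the second for miR-182. The rats numbered 4 had been set apart by the ratio of miR-182 to miR-183, so these ranks are no support for a relation. In the 6 rats without those numbered 4, miR-96 came 35th for miR-182 (0.637) and miR-30b-3p came first for miR-96 (0.898). miR-151* rose to 3rd for miR-182, and all others of the 5 listed for each member fell in rank. Among them, let-7e came 29th for miR-183, miR-350 248th for miR-96 and miR-342-5p 129th for miR-182. The lists of 5 thus rested largely on the rats numbered 4.

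The miR-200 family, other clustered miRNAs known from epithelial cells, where they restrain the transcription factors ZEB1 and ZEB2, was measured as 9 arms. None of the 9 was called or had an unadjusted p under 0.05 in edgeR, and the groups overlapped in all 9, where 9.03% of all miRNAs were called and 16.3% had groups that did not overlap. The median log2 fold change of the 9 was -0.11, and the 8 arms with a mean of at least 10 normalized counts lay between -0.54 for miR-200a* and 0.58 for miR-141*. No fold change is given for miR-200c*, which had fewer than 5 normalized counts in every rat. The most abundant arm, miR-200b, had 51334, 53100, 66283 and 42728 normalized counts in control rats 1 to 4 and 42578, 46935, 54646 and 26886 in AA-treated rats 1 to 4. AA-treated rat 4, the highest for miR-182 and miR-96, was thus the lowest of all 8 rats for miR-200b. The same rat had the lowest value of the 8 for miR-200a (23669), miR-429 (11206) and miR-141 (4683), but not for miR-200c (9616). Across the 8 rats, r was -0.93 between miR-182 and miR-141, which came 368th of 369 in the order of likeness to miR-182, and it was -0.94 without both rats numbered 4. Between miR-96 and miR-200b, r was -0.88 over the 8 rats and -0.36 without both rats numbered 4. These correlations are descriptions, chosen from a list of 8 arms for each member after their values were seen.

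**Figure D4:**
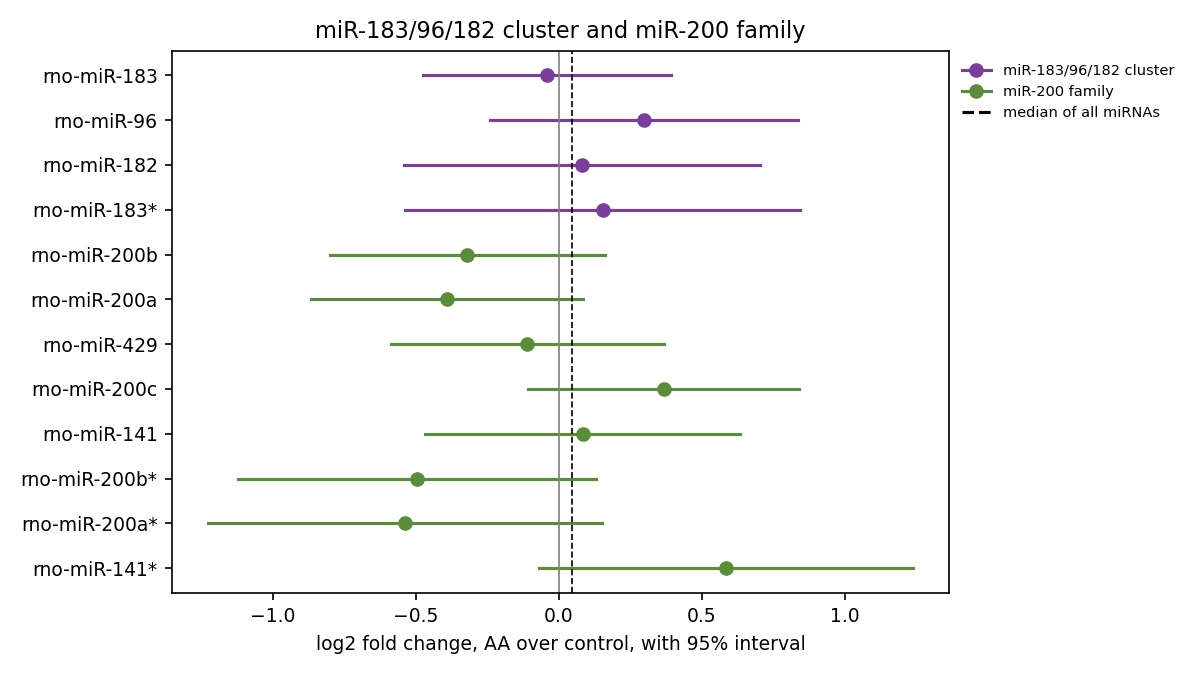
Log2 fold changes of AA-treated over control rats (horizontal axis) with 95% intervals from edgeR, 4 rats per group, for the 4 cluster members (purple) and 8 miR-200 family arms (green) with a mean of at least 10 normalized counts. The dashed line is the median of all 620 miRNAs at 0.05; the interval includes 0 for each of the 12 miRNAs, and the estimates of the cluster run from -0.04 for miR-183 to 0.30 for miR-96.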

How the data were processed

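Kidney small RNA of 8 rats, 4 per group, was sequenced, and CASAVA 1.7 is named in the submitters' processing notes. The authors removed adaptors and assigned reads to rat miRNAs of miRBase release 16 with miRanalyzer, and they deposited unnormalized whole-number counts for each rat. No genome build is given in the sources used here. Groups and rat numbers came from the labels. Members and lists were chosen with earlier results of these data known.

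After scaling by median-of-ratios size factors, all 620 miRNAs were tested without a filter or covariate with edgeR 4.0.16 (R 4.3.3). Ratios and correlations were computed for miRNAs with a mean of at least 10 normalized counts (pseudocount of 1 for correlations) with scipy 1.17.1 and numpy 2.4.6 in Python 3.11.15, and figures with matplotlib 3.10.9. The miRNAs named were the members, the 5 most alike to each of miR-183, miR-96 and miR-182, their neighbours in level, and the most abundant members of lists. Single marker miRNAs, further miR-200 arms and miR-200c* were named after their values were seen. Sequences are from RefSeq on GRCr8. Alternatives were TMM, total counts, DESeq2 1.42.0, limma-voom (limma 3.58.1), robust moderation, a filter of 10 counts in 4 rats, a replicate block, other pseudocounts and scales, and fits without each rat in turn or without both rats numbered 4. The depth was 13412373 to 15616670 counts per rat, and the floor of 3 counts covers counting error only, since PCR reads are not independent molecules. Scripts were tested on simulated data. Real-time PCR, mRNA and protein data were not used here.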

Additional observations from a re-analysis of the deposited data

Results flagged for a closer look

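In groups of 4 rats, a rat was singled out where its gap to the nearest of the others took up most of the group's range by Dixon's criterion at the 95% level. Of 28 groups of 4 examined, 4 held such a rat, and chance alone singles out about 1 in 20. In the AA-treated group these were AA-treated rat 4 for the normalized count of miR-96 (1910, against 965 to 1049 in the other 3), for the ratio of miR-182 to miR-183 (6.14, against 3.07 to 3.43) and for the share of the library held by the cluster (1.01%, against 0.450% to 0.473%), and AA-treated rat 2 for the ratio of miR-183* to miR-183 (0.0017, on 28 counts of miR-183*). The first 3 share 1 library and are not independent. The cause was not tested.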

How the results depend on the processing

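No cluster member was called under any of the 16 other settings, and none had an unadjusted p under 0.05 in any of them. The sign of the smallest differences changed. The log2 fold change of miR-183 was 0.0016 with TMM and 0.21 with total counts, and -0.15 to 0.13 when each rat was left out. Total counts moved the median of all miRNAs from 0.05 to 0.31, so that miR-183 stayed below that median. The log2 fold change of miR-182 was -0.21 without both rats numbered 4 and -0.31 to 0.25 when each rat was left out. Without AA-treated rat 4 the log2 difference in the ratio of miR-182 to miR-183 was -0.21, the lowest of a range of -0.21 to 0.23 over the rats left out. The ratio of miR-182 to miR-183* ranged from -0.41 to 0.10, the last without AA-treated rat 2, and that of miR-96 to miR-183* from -0.11 to 0.25, with -0.094 without both rats numbered 4. The correlation of miR-182 and miR-96 no longer passed the exact permutation test with total counts (0.885, adjusted p = 0.147), as deviations from group means (0.953, adjusted p = 0.115, permuted within groups) or without both rats numbered 4 (0.637, adjusted p = 0.488), and it ranged from 0.734 to 0.930 when each rat was left out. With 7 rats it was higher but did not pass without control rat 1 (0.908, adjusted p = 0.0833) or control rat 4 (0.910, adjusted p = 0.075), and it was lower without AA-treated rat 4 (0.734, adjusted p = 0.387). That of miR-182 and miR-183* ranged from 0.101 to 0.834 and passed only without AA-treated rat 2 (exact permutation adjusted p = 0.0429). The median of the miR-200 family was 0.14 with total counts, below the shifted median of all miRNAs, and -0.26 to 0.04 when each rat was left out, the highest (0.040) without AA-treated rat 4.

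The rat numbers in the labels name different animals. Rats of the same number deviated from their group means with correlations of -0.011 to 0.337 and a mean of 0.15. For rats of different numbers these correlations were -0.28 to 0.25 with a mean of -0.05, and the highest of all was that of the rats numbered 4. Deviations from a group mean cancel within the group, so both means are tied to each other and are not separate results. The numbers were not taken as pairs, since the labels name no shared litter, batch or day. A factor shared by rats of the same number was not tested. With the replicate number as a block, the log2 fold change of miR-182 was -0.0011 (adjusted p = 0.997, edgeR), no member was called, and the number of calls over all miRNAs rose from 56 to 74. At each of the 4 numbers, the AA-treated rat had the lower ratio of miR-183 to miR-96 and of miR-182 to miR-96. The log2 differences were -0.26 and -0.24, each with an exact sign-flip permutation p of 0.125, the smallest that 4 pairs allow. These were the lowest p of the 6 ratios, with 0.625 to 0.75 for the others by that test, and were not adjusted. Both ratios hold miR-96, so they are not independent. The cause of these differences was not tested. The minor arms rest on at most 28 counts per rat.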
